A study of Mus musculus with 16 samples.

Results

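B16 is a transplantable mouse melanoma of the strain labelled C57BI6, and 4 of the 16 arrays of the series carried its DNA: B16F0 ECAC, B16F0 ATCC, B16F10 NCI and B16F10 ATCC. They were chosen by their cell line labels, and the changes described here are the autosomal gains and losses present in all 4 and lacking in the other tumours of the same strain. Each array compared DNA of 1 cultured line, labelled with the red dye Cy5, with commercial mouse genomic DNA from Merck, labelled with the green dye Cy3. All 4 B16 lines are labelled C57BI6, female and melanoma, and carry no treatment or engineered allele per the labels. The other C57BI6 lines were MC38 (colorectal), LL2 (lung), Hepa1-6 (liver), PAN02 (pancreas), TRAMPC1 and TRAMPC2 (prostate), EL4 (blood) and ID8 (ovary). TRAMPC1 and TRAMPC2, the only lines labelled male, were averaged, which left 7 families from 8 arrays. The Balb/C lines CT26 (colon), 4T1 (breast) and Renca (renal) and the DBA/2 line P815 (mast cells) were set beside them as values only. Every line came from 1 culture on 1 array. The 4 B16 arrays are stocks and sublines of 1 tumour and not 4 tumours, so a p-value among them measures the spread between stocks, which may be technical.

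Comparative genomic hybridisation reads DNA copy number from the ratio of 2 dyes at probes spread along the chromosomes. A gain raises the ratio of tumour over reference and a loss lowers it, always relative to the array's own average, so the ploidy of a line is not known. Transplanted lines carry changes of the original tumour, changes acquired in culture, and inherited differences between their mouse and the reference DNA, and an array of 1 culture cannot tell these apart. In melanoma, growth is often driven through the BRAF and MAP kinase pathway, and the transcription factor MITF sets the melanocyte lineage. DNA carries no expression markers, so the melanoma label could not be checked against melanocyte genes.

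The ratio was expressed as log2 of line over reference, centred on the autosomal median of each array. The line signal was well above background at 99.6% to 99.7% of probes on the B16 arrays. The noise between neighbouring probes, in log2, was 0.23 in B16F0 ECAC, 0.40 in B16F0 ATCC, 0.30 in B16F10 NCI and 0.32 in B16F10 ATCC, so B16F0 ATCC was the noisiest of the 4. B16F10 NCI was scanned in the first of 2 scan batches, with 5 other arrays, and the other 3 B16 arrays in the second. Hepa1-6 and PAN02, labelled as different tumours, had almost the same profile (r = 0.99 across 2386 bins of 1 Mb, a description with shared probes and reference), so they are not shown to be separate tumours. Across the same bins, the 6 pairs of B16 arrays had r from 0.76 to 0.90 with a median of 0.79, against 0.20 to 0.55 with a median of 0.37 for the 28 pairs of a B16 array and another C57BI6 family. With the bins altered in all 4 arrays left out, the B16 pairs stood at 0.49 to 0.81.

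A bin was called altered in an array at a log2 ratio of 0.3 or more in size. B16F0 ECAC had 607 altered bins (25.4% of all), B16F0 ATCC 711 (29.8%), B16F10 NCI 824 (34.5%) and B16F10 ATCC 693 (29.0%). In all 4 arrays together, 281 bins (11.8%) were altered in the same direction, 210 gained and 71 lost. Of the gained bins of an array, 56.6% (B16F10 NCI) to 77.2% (B16F0 ECAC) were gained in all 4, and of its lost bins 15.7% (B16F10 NCI) to 21.2% (B16F0 ECAC) were lost in all 4. By the number of arrays, gains were found in 1 array in 135 bins, in 2 in 90, in 3 in 62 and in 4 in 210. Losses were found in 1 array in 336 bins, in 2 in 161, in 3 in 184 and in 4 in 71. Chromosome 6 held 143 of the 210 bins gained in all 4. Without it, 67 bins were gained in all 4 arrays and 134 in 1, so the high count at 4 arrays rests on that chromosome, and 29.5% (B16F10 NCI) to 52.8% (B16F0 ECAC) of the gained bins of an array were gained in all 4.

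**Figure D1:**
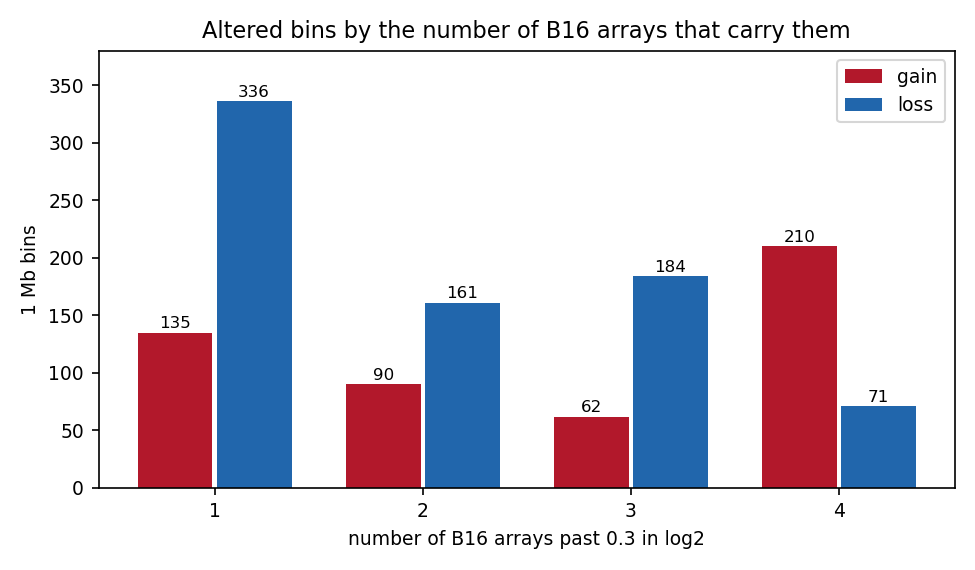
Number of 1 Mb bins (vertical axis) at or past a log2 ratio of 0.3 in 1, 2, 3 or 4 B16 arrays (horizontal axis), with bars for gains and losses starting at 0. Gains are most numerous in all 4 arrays (210 bins, 143 of them on chromosome 6), losses in 1 array (336 bins).

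Of the 281 shared bins, 101 (4.23% of all bins) were past the threshold in the same direction in none of the 7 other C57BI6 families, 70 gained and 31 lost. Only the same direction was counted: in 39 of the 101, at least 1 of these families was past 0.3 in the opposite direction. The split moved with the settings: it was 74 gained and 68 lost without B16F0 ECAC, 161 and 263 in the first scan batch, 38 and 40 at a threshold of 0.2, 99 and 2 at 0.5, and 12 and 14 with the other families held under 0.15. Chromosome 6 held 51 of the 70 gained bins, followed by chromosome 11 with 10 and chromosome 1 with 6. The 31 lost bins lay on chromosomes 19 (10), 5 (9), 8 (5), 13 (5) and 4 (2). A joint segmentation of the 4 arrays, which places 1 set of boundaries on all of them, gave 332 segments. Of these, 95 were altered in all 4 arrays (290.95 Mb, 12.1% of the covered length), 65 of them gains over 240.11 Mb and 30 losses over 50.8 Mb. In 18 of the 95 no other C57BI6 family reached the threshold in the same direction, although in 9 of them at least 1 family was past it in the opposite direction. They were 12 gains over 110.48 Mb on 4 chromosomes and 6 losses over 25.3 Mb on 4 others. With normexp, another background correction, 3 segments and 1 bin of this kind were found, and the 3 covered at least 50% of only 1 of the 18. B16F0 ECAC was past the threshold in 1 of the 18 segments, although the sign was kept in 18 of 18 on each array. Another 26 short segments were past the threshold in all 7 other families as well, 5.86 Mb in all, and 51 in 1 to 6 of them. Of the 18 segments, 10 were also past the threshold in the same direction in no Balb/C or DBA/2 family, and in 2 of the 10 at least 1 of these families was past it in the opposite direction.

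**Figure D2:**
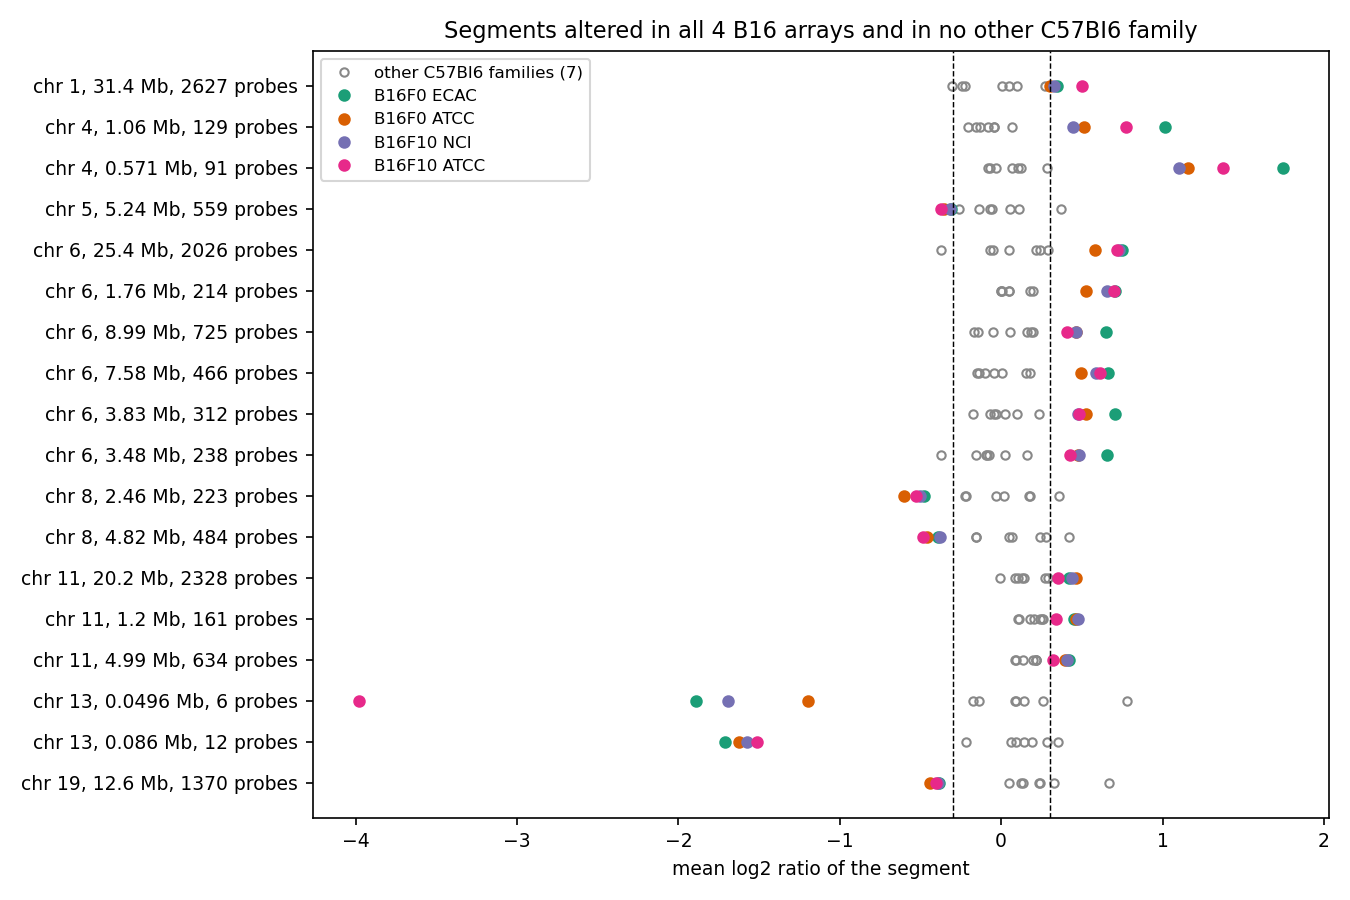
Mean log2 ratio (horizontal axis) of each of the 18 segments altered in all 4 B16 arrays and in no other C57BI6 family in the same direction (rows), with filled points for the 4 B16 arrays, open points for the 7 other families and dashed lines at 0.3 and -0.3. The chromosome 4 gain reaches 1.75 and the chromosome 13 losses reach -3.98, while the other families lie between -0.37 and 0.78.

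Chromosome 6 was the only autosome whose median was at or past 0.3 in all 4 B16 arrays. Its median was 0.77 in B16F0 ECAC, 0.62 in B16F0 ATCC, 0.70 in B16F10 NCI and 0.64 in B16F10 ATCC, a mean of 0.68 ± 0.068 (SD, n = 4). In the 7 other families it ran from -0.046 (PAN02) to 0.27 (ID8), a mean of 0.095 ± 0.12 (SD, n = 7), and in the Balb/C and DBA/2 lines from -0.15 (4T1) to 0.24 (P815). The groups did not overlap. That was not particular to chromosome 6: on chromosome 19 the B16 medians ran from -0.12 to -0.06 and those of the other families from 0.05 to 0.70. With B16 entered as 1 value against the 7 families, chromosome 6 was the 1 autosome of 19 (5.26%) called by limma with Benjamini-Hochberg adjustment, with a difference of 0.59 ± 0.14 (SE) and an adjusted p of 0.018. With the scan batch as a block, B16 entered as 2 values, 1 per batch, which counts stocks of 1 tumour as separate units. The difference was then 0.59 ± 0.11 (SE, limma, adjusted p = 0.001). In the second batch alone it was 0.59 (limma, adjusted p = 0.015), and in the first, with 1 B16 array, 0.58 (limma, adjusted p = 0.33). With normexp it was 0.37 (limma, adjusted p = 0.12), which ends the call. The main fit counts Hepa1-6 and PAN02 as 2 families. With these averaged to 1 value, and without normexp, the difference was 0.57 ± 0.16 (SE, limma, adjusted p = 0.027).

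**Figure D3:**
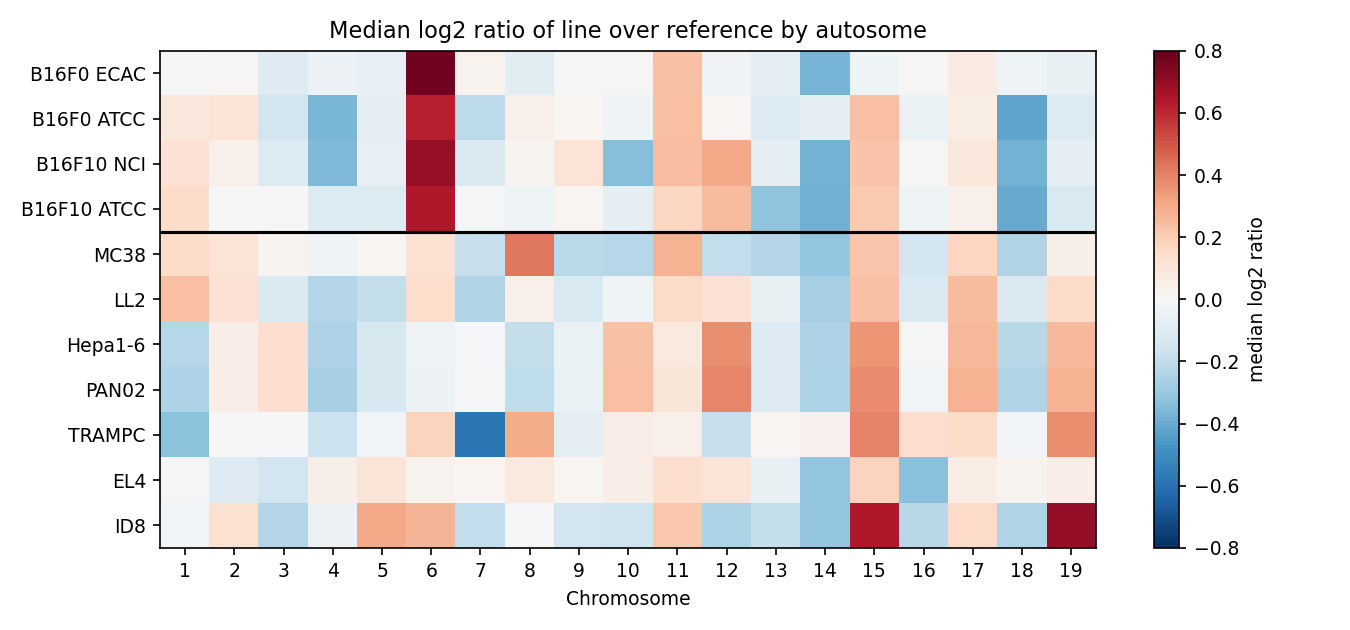
Median log2 ratio (colour, red above 0 and blue below) of each of the 19 autosomes (columns). Rows are the 4 B16 arrays and, under a black line, the 7 other C57BI6 families. On chromosome 6 the 4 B16 arrays lie between 0.62 and 0.77, above all other families, which end at 0.27.

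The gain of chromosome 6 ran nearly from end to end. Of its 13973 probes, 97.9% lay in segments gained in all 4 arrays, and 143 of its 147 bins were gained in all 4. All 4 arrays stood above every other family in 134 of the 147 bins. Over all autosomal bins, the 4 arrays lay beyond all 7 families on 1 side in 15.9%. The other families had between 0 (Hepa1-6, PAN02) and 69 (ID8) gained bins on this chromosome, with 25 in MC38, 41 in LL2, 30 in TRAMPC and 7 in EL4. The level was uneven along the segments. It ran from 0.20 to 1.30 in B16F0 ECAC, 0.28 to 1.14 in B16F0 ATCC, 0.19 to 1.29 in B16F10 NCI and -0.32 to 1.34 in B16F10 ATCC. The upper end in each array was the segment chr6:40989681-41487803 (64 probes). There 6 of the other C57BI6 families were also past the threshold, with LL2 highest at 0.88, as were all 4 Balb/C and DBA/2 lines. That peak was thus not particular to B16.

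A pair of segments interrupted the gain. From chr6:42700530-45687258 (265 probes, mm8 here and below) the level was 0.20, 0.28, 0.19 and 0.19 in B16F0 ECAC, B16F0 ATCC, B16F10 NCI and B16F10 ATCC, under the threshold in all 4. From chr6:52109422-52251426 (34 probes) it was 0.45, 0.66 and 0.58 in the first 3 of these and -0.32 in B16F10 ATCC. The second interruption was thus a loss in a single stock within a gain held by the other 3.

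By segment means, the part of chromosome 6 where no other C57BI6 family was past the threshold began at the first probe. From chr6:3024849-28391035 (25.4 Mb, 2026 probes) the level was 0.75 in B16F0 ECAC, 0.58 in B16F0 ATCC, 0.73 in B16F10 NCI and 0.72 in B16F10 ATCC, a mean of 0.69 ± 0.077 (SD, n = 4). The other families had a mean of 0.04 ± 0.23 (SD, n = 7), from -0.37 to 0.29, and CT26 stood at 0.35. The highest other family, TRAMPC, was just under the threshold at 0.29. Single bins within the segment could be past it: in chr6:6000001-7000000 LL2 stood at 0.33 and TRAMPC at 0.32. The remaining 5 such segments of chromosome 6 were 1.76 to 8.99 Mb long, with B16 means of 0.50 to 0.65. Among them, chr6:45698653-47455166 stood at 0.70, 0.52, 0.66 and 0.70, chr6:73861394-81436979 at 0.66, 0.49, 0.59 and 0.61, and chr6:108856091-112689946 at 0.70, 0.53, 0.47 and 0.48. The highest of the 7 families stood at 0.20, 0.18 and 0.24 in these 3; that it lay below the B16 arrays follows from how the segments were chosen.

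The longest shared segments that other families also had lay on chromosome 6 too. From chr6:112693785-130338076 (17.6 Mb) the B16 arrays had a mean of 0.70 ± 0.12 (SD, n = 4), and 1 family was past the threshold, at 0.37. From chr6:28395371-40983869 (12.6 Mb) the mean was 0.78 ± 0.058 (SD, n = 4), with 2 families past the threshold and the highest at 0.37. From chr6:137948305-149520662 (11.6 Mb) it was 0.67 ± 0.11 (SD, n = 4), with 1 family past the threshold, at 0.31. In each of the 3, every B16 array was higher than every other family, so the families that shared the gain had it at a lower level.

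The highest gain of the 18 lay on chromosome 4. It covered 1.64 Mb (220 probes) in 2 steps. In the inner step, chr4:140349502-140920315 (0.571 Mb, 91 probes), the log2 ratio was 1.75 in B16F0 ECAC, 1.16 in B16F0 ATCC, 1.10 in B16F10 NCI and 1.37 in B16F10 ATCC. The mean was 1.35 ± 0.29 (SD, n = 4), or 2.54 times the reference. In the outer step, chr4:139282580-140346135 (1.06 Mb, 129 probes), the values were 1.01, 0.51, 0.45 and 0.77, a mean of 0.69 ± 0.26 (SD, n = 4). B16F0 ECAC was highest and B16F10 NCI lowest in both steps. The other C57BI6 families averaged 0.06 ± 0.13 (SD, n = 7) in the inner step, with EL4 highest at 0.29, and -0.08 ± 0.09 (SD, n = 7) in the outer step, with none above 0.07. Outside the strain, Renca reached 0.34 in the inner step. Both boundaries and the step between them were found in each of the 4 arrays when segmented alone.

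**Figure D4:**
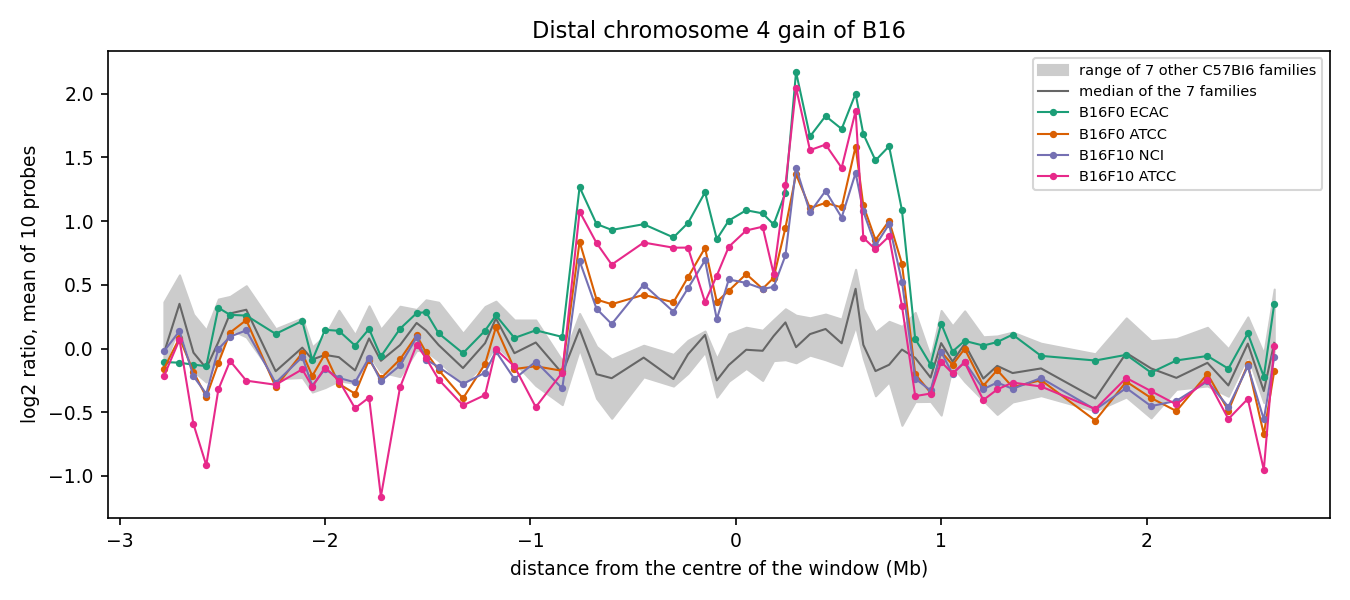
Log2 ratio in means of 10 probes (vertical axis) around the chromosome 4 gain by distance from the centre of the window in Mb (horizontal axis), with a line for each B16 array, a grey band for the range of the 7 other C57BI6 families and a grey line for their median. In the inner step the B16 points run from 0.34 to 2.17 and the band reaches 0.62, and at each of the 9 points there all 4 B16 arrays lie above the band.

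Chromosome 11 held a moderate gain. From chr11:48916214-69148946 (20.2 Mb, 2328 probes) the level was 0.42 in B16F0 ECAC, 0.46 in B16F0 ATCC, 0.44 in B16F10 NCI and 0.35 in B16F10 ATCC, a mean of 0.42 ± 0.048 (SD, n = 4). The other families averaged 0.14 ± 0.10 (SD, n = 7), and MC38, the highest, stood at 0.29, so the distance to the nearest B16 array was small. Another 2 gained segments of the chromosome, 1.20 and 4.99 Mb long, had B16 means of 0.43 and 0.39 against highest families at 0.26 and 0.22. Outside these 3 segments the mean over the probes of chromosome 11 was 0.17 ± 0.049 (SD, n = 4). The median of the whole chromosome was 0.22 ± 0.038 (SD, n = 4) in B16 and 0.14 ± 0.082 (SD, n = 7) in the other families (difference 0.08 ± 0.13 SE, limma, adjusted p = 0.78).

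The longest of the 18 was the gain at chr1:32211297-63639794 (31.4 Mb, 2627 probes). Its level was 0.35, 0.30, 0.33 and 0.50 in B16F0 ECAC, B16F0 ATCC, B16F10 NCI and B16F10 ATCC, a mean of 0.37 ± 0.088 (SD, n = 4). The other families ran from -0.31 to 0.27, with LL2 highest, and P815 stood at 0.47. This gain was close to the threshold in 3 of the 4 arrays, and only B16F10 ATCC stood clear of it. The mean over the probes of the rest of the chromosome was 0.05 ± 0.081 (SD, n = 4).

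Among the losses, the longest lay on chromosome 19. From chr19:10876941-23521104 (12.6 Mb, 1370 probes) the level was -0.39 in B16F0 ECAC, -0.44 in B16F0 ATCC, -0.39 in B16F10 NCI and -0.40 in B16F10 ATCC, a mean of -0.41 ± 0.025 (SD, n = 4). The 4 values were almost equal, and all 7 other families were above 0, from 0.05 (EL4) to 0.67 (ID8), with a mean of 0.25 ± 0.20 (SD, n = 7). Renca, a Balb/C line, had a like level of -0.41. The whole-chromosome median differed less: -0.09 ± 0.031 (SD, n = 4) in B16 against 0.27 ± 0.23 (SD, n = 7), a difference of -0.36 ± 0.20 (SE, limma, adjusted p = 0.78). It was not called, and the probes in the rest of the chromosome had a B16 mean of 0.01.

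On chromosome 8, the loss was made of 3 adjoining segments. The first, chr8:115266395-117727171 (223 probes), stood at -0.48, -0.60, -0.50 and -0.53 in B16F0 ECAC, B16F0 ATCC, B16F10 NCI and B16F10 ATCC. The third, chr8:117832116-122654712 (484 probes), stood at -0.39, -0.46, -0.38 and -0.48. Between them, 13 probes at chr8:117733493-117821182 were deeper, at -1.39, -1.52, -1.31 and -1.36. This short segment was picked after seeing its values, and it is not among the 18, since Hepa1-6 and PAN02 were past the threshold there at -0.38 each. Outside the strain, Renca stood at -1.13, close to the B16 values, and CT26 at -0.32. In the outer 2 segments the other families averaged 0.04 ± 0.22 and 0.11 ± 0.22 (SD, n = 7), and the lowest were -0.23 and -0.16. In the short segment all 4 B16 arrays were lower than every other C57BI6 family.

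**Figure D5:**
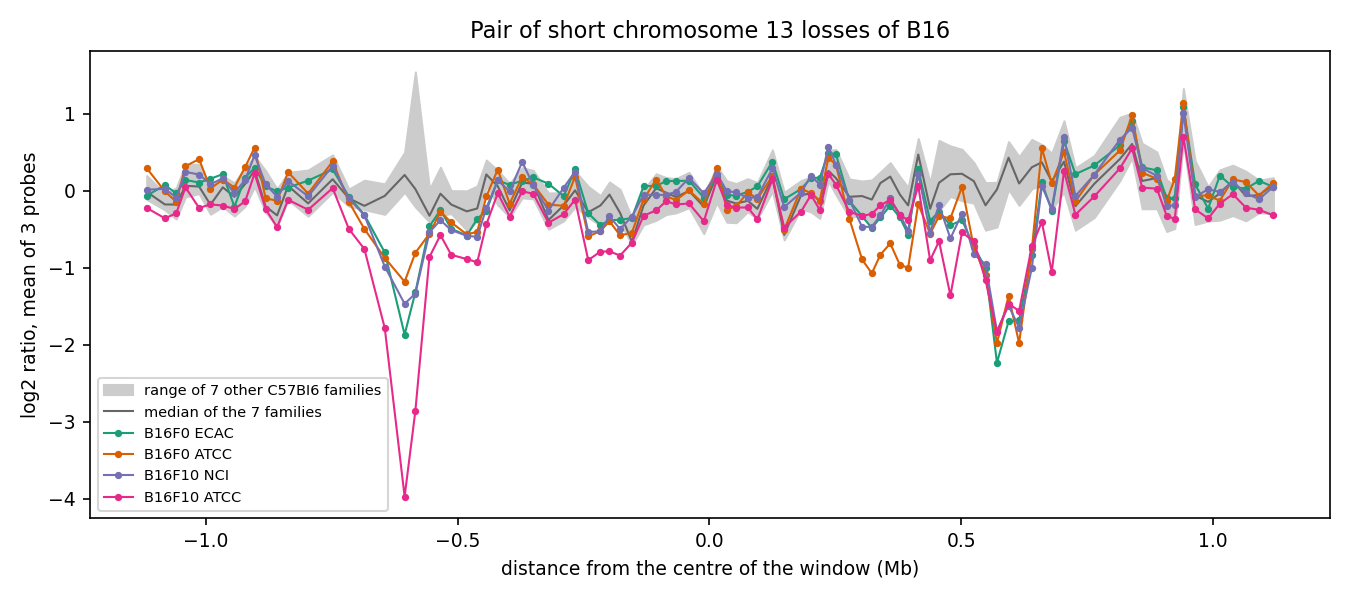
Log2 ratio in means of 3 probes (vertical axis) around the chromosome 13 losses by distance from the centre of the window in Mb (horizontal axis), with a line for each B16 array, a grey band for the range of the 7 other C57BI6 families and a grey line for their median. A pair of short losses is seen in all 4 B16 arrays, the first deepest in B16F10 ATCC (segment mean -3.98).

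The deepest losses of the 18 were a pair of short segments on chromosome 13. The first, chr13:109712482-109762106 (0.0496 Mb, 6 probes), stood at -1.89 in B16F0 ECAC, -1.20 in B16F0 ATCC, -1.69 in B16F10 NCI and -3.98 in B16F10 ATCC, a mean of -2.19 ± 1.2 (SD, n = 4). B16F10 ATCC was the lowest of the 4 at each of the 6 probes, and at 1 of them its red signal was not well above background. The other families ran from -0.17 to 0.78, and the highest, Hepa1-6, rested on 1 probe at 4.95. The second, chr13:110896600-110982617 (0.086 Mb, 12 probes), was nearly equal in the 4 arrays at -1.71, -1.62, -1.58 and -1.51, a mean of -1.61 ± 0.085 (SD, n = 4), or 3.04 times below the reference. There the other families averaged 0.13 ± 0.18 (SD, n = 7), from -0.22 to 0.35, while Renca stood at -0.45 and P815 at -0.39. The remaining loss, chr5:89228630-94470016 (5.24 Mb, 559 probes), was shallow, at -0.31, -0.35, -0.31 and -0.37, with MC38 at -0.26 and Renca at -0.32. It adjoined a deeper loss of all 4 arrays, chr5:79195143-89219517 (mean -0.46), where 2 other C57BI6 families were past the threshold. Beyond it, chr5:95757069-103763241 was also lost in all 4 (mean -0.49), with 1 family past the threshold.

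The deepest loss in all 4 arrays was shared with other families. At chr4:88706575-88776278 (11 probes), 10 probes had a red signal not well above background on all 4 B16 arrays, and the ratio was at least 17.2-fold below the reference. ID8 (-5.01), LL2 (-3.35), MC38 (-2.51) and EL4 (-0.37) were past the threshold there too, as were all 4 Balb/C and DBA/2 lines. On the same chromosome, chr4:81827629-81899796 (11 probes) stood at -2.57, -2.24, -2.04 and -2.12. Both segments were singled out after their values were seen. PAN02 (-0.47) and Hepa1-6 (-0.38) were past the threshold there, far above the B16 values.

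Bin by bin, 1134 of 2386 bins (47.5%) differed from the reference by limma at an adjusted p of 0.05 over the 4 B16 arrays, 556 gained (23.3%) and 578 lost (24.2%). The most frequent value (mode) of the centred ratios was -0.13 in B16F0 ATCC and between -0.035 and -0.015 in the other 3 arrays. With each array centred on its mode in place of its median, the split was 602 gained and 397 lost, and with normexp 222 and 1. Without B16F10 NCI 538 bins passed, and without B16F0 ATCC 705. With the scan batch as a term in this fit, 823 passed. With B16 as 1 value against the 7 families, 0 bins (0.0%) passed by limma, and 223 had an unadjusted p under 0.05, 151 of them higher in B16. With the 4 B16 arrays entered singly, which treats stocks of 1 tumour as separate tumours, 376 bins (15.8%) passed. With the scan batch as a block, 155 bins passed. That fit also took B16 as 2 values, 1 per batch, so effects of the batch term and of the second B16 value cannot be told apart.

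The bin with the largest difference was chr4:140000001-141000000, within the chromosome 4 gain, at 1.00 ± 0.26 (SD, n = 4) in B16 against 0.0042 ± 0.13 (SD, n = 7). The difference was 1.00 ± 0.17 (SE, limma, adjusted p = 0.17). The next 9 higher bins all lay on chromosome 6, with differences from 0.71 to 0.78. Of the 10 bins furthest below the other families, 9 lay on chromosome 19, with differences from -0.70 to -0.66. The tenth, chr15:32000001-33000000, stood at -0.26 ± 0.16 (SD, n = 4) against 0.40 ± 0.18 (SD, n = 7), so the other families lay further from 0 than B16 did.

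The ends of the 18 segments were then looked up in each array segmented by itself. Of 34 distinct ends, 8 had a break within 5 probes in all 4 B16 arrays, 7 in 3 arrays, 17 in 1 or 2 and 2 in none. The ends had been placed on these same 4 arrays together, so breaks near them are in part built in. The 8 were the 3 ends on chromosome 4, both outer ends of the chromosome 8 loss, both ends of the 20.2 Mb gain of chromosome 11, and the far end of the chromosome 19 loss. In 7 of the 8, none of the 8 other C57BI6 arrays had a break there. The start of the chromosome 8 loss was the exception, with breaks in LL2 and EL4. Over all autosomal probes, only 0.23% (PAN02) to 1.83% (EL4) lay within 5 probes of a break in each other array. Most positions would thus lack a break in these arrays, and the 7 ends are not shown to be particular to B16. In the B16 arrays the share was 0.66% (B16F0 ATCC) to 1.37% (B16F0 ECAC). The step in level was taken between the means of a fixed run of probes on each side. Its median was 0.59 at the 8 ends and 0.18 at the others. The ends found in fewer arrays were mostly those of small steps so measured, among them most ends on chromosome 6. The run is longer than the chromosome 13 losses of 6 and 12 probes, so steps there, as low as 0.089, understate the depth of these losses.

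Each array was also held out in turn, with the segments drawn from the other 3. Of the segments altered in those 3 and in no other C57BI6 family, the held-out array was past the threshold in 12 of 15 (80%) for B16F0 ECAC, 18 of 19 (94.7%) for B16F0 ATCC, 17 of 17 for B16F10 NCI and 15 of 16 (93.8%) for B16F10 ATCC. Of all segments altered in those 3, whether or not other families had them, the shares in the same order were 91.3%, 91.3%, 100% and 92.6%. The segments that the other families lack thus did not stand out, and for B16F0 ECAC their share was lower. Over all segments, altered or not, the held-out array was past the threshold in either direction in 40.1% to 46.6%. B16F0 ECAC, which lacked the most, was also the array with the fewest altered bins. Its median size over the 101 bins, 51 of them gains on chromosome 6, was the largest at 0.60, against 0.49 in each of the other 3 arrays. That did not hold in every segment. In the chromosome 19 loss B16F0 ECAC was the shallowest, at -0.385 against -0.441 in B16F0 ATCC. In the chromosome 1 gain it stood at 0.35 against 0.50 in B16F10 ATCC.

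The threshold of 0.3 divides values that lie close together. Just inside it, the weakest array of chr4:148963207-149156186 stood at 0.30. Just outside it, chr13:3004789-29376788 stood at -0.30, -0.38, -0.34 and -0.35 in B16F0 ECAC, B16F0 ATCC, B16F10 NCI and B16F10 ATCC, and chr5:103771297-117556163 at -0.33, -0.31, -0.30 and -0.43. For the other families, chr6:3024849-28391035 and chr11:48916214-69148946 counted as lacking with the nearest family at 0.29, and a short chromosome 12 loss and chr6:137948305-149520662 did not, with the nearest at 0.30 and 0.31 in size. The gap between the weakest B16 array and the nearest family was 0.032 to 1.29 over the 18 segments, with a median of 0.26.

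Genes could be placed by chromosome only, since the files name no gene at a probe, so the level of each gene itself was not measured. Of 63 genes in 5 lists, 6 (9.52%) lie on chromosome 6, against 1126 of 20665 autosomal protein-coding genes (5.45%). Of the 15 melanocyte lineage genes, 2 lie there: Mitf, the transcription factor of the lineage, and Gpnmb, a glycoprotein of melanosomes. Of the 15 growth genes, 4 lie there, among them Braf, a kinase of the MAP kinase route, and Met, a growth factor receptor upstream of it. None of the 10 tumour suppressors, 12 antigen presentation genes or 11 interferon genes does. The list genes on chromosome 19, of which 10 of 59 bins were lost in all 4 arrays, include the melanocyte antigen gene Mlana, the G protein gene Gnaq, the checkpoint ligand gene Cd274 and the kinase gene Jak2. Cdkn2a and Cdkn2b, inhibitors of the cell cycle, and Tyrp1, an enzyme of pigment synthesis, lie on chromosome 4. Trp53 and Nf1 lie on chromosome 11, Mc1r, the melanocortin receptor gene, on chromosome 8, and Kit on chromosome 5. Which of these genes lie within the segments was not tested.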

How the data were processed

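The spot intensity values were made by the authors with Agilent Feature Extraction per the submitters' processing notes (version 10.7.3.1, per the file headers). The deposited log2 value table matched the deposited log10 ratios: it differed from these ratios, turned to log2, by at most 5.06e-05 on any array. The column medians of the table ran from -0.044 to 0.053. Other deposited columns were positions (mm8, per the file headers) and 0 or 1 flags.

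Main values were log2 of processed red over processed green signal, without control and flagged spots, repeat spots averaged, centred on each array's autosomal median, with no loess or quantile step. Of 235402 probes, 220668 were autosomal, at a median spacing of 7827 bp. Bins of 1 Mb needed 10 probes. The 4 B16 arrays were segmented together by an exact change point search (penalty 15 log n, at least 5 probes, probes limited to 3 noise SDs from the running median of 5), and single arrays with a penalty of 6 log n. Limma 3.58.1 in R 4.3.3 (lmFit, eBayes, Benjamini-Hochberg at 0.05) gave all p-values. The segmentation and limma steps were tested on simulated data.

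Named were chromosomes past 0.3 in all 4 arrays, segments of at least 10 Mb, the 5 highest and 5 lowest shorter ones, 10 bins per direction, and the 3 longest segments shared with other families. The segments, lists and rules were chosen with earlier results of these data known. The gene table is on another build, so its positions were not used, and some list genes are not reported here. The normexp alternative (offset 50) used median spot and background signals, since the files have no mean signal column. Centring on the mode, the value table, dim probes, flagged spots, scan batch, other thresholds and left-out arrays were the other alternatives.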

Additional observations from a re-analysis of the deposited data

Results flagged for a closer look

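In 86 groups of values (the 4 B16 arrays or the 7 other C57BI6 families, for the named chromosome, segments and bins), 6 had a value far from the rest by Dixon's criterion, which chance meets in about 1 of 20 groups. In chr6:95000001-96000000, B16F0 ATCC stood at 0.70, with the next B16 array at 0.88. In chr6:139000001-140000000, B16F0 ECAC stood at 0.79, with the next at 0.62. In chr19:18000001-19000000, B16F0 ATCC stood at -0.40, with the next at -0.36. The other 3 were ID8 values on chromosome 19: 0.69 from 12000001, with the next family at 0.35, 0.52 from 13000001, with the next at 0.16, and 0.65 from 14000001, with the next at 0.21.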

How the results depend on the processing

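Normexp moved the most values. The bins called by limma in the 4 B16 arrays were 223 in place of 1134, the chromosomes called between B16 and the other families 0 in place of 1, the segments altered in B16 and in no other C57BI6 family in the same direction 3 in place of 18, the bins of that kind 1 in place of 101, and the chromosome 6 difference 0.37 in place of 0.59. The median size of the 18 segments went from 0.65 to 0.14 in B16F0 ECAC and from 0.49 to 0.50 in B16F0 ATCC; the cause was not tested.

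The bins called in the 4 arrays were 213 of 501 with 5 Mb bins, 538 in the second scan batch alone, and 538 to 1062 with 1 B16 array left out, where fewer arrays enter. The bins called against the families were 155 with the scan batch as a block (B16 as 2 values) and 376 with the B16 arrays entered singly. They were 0 with each B16 array or family left out in turn. For chromosomes, 0 were called in the first scan batch (chromosome 6 difference 0.58) and 2 with the arrays entered singly, chromosomes 6 and 19. With 1 array or family left out, 1 chromosome was always called, and the chromosome 6 difference was 0.56 to 0.62.

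The count of segments altered in B16 and in no other C57BI6 family was 10 with the Balb/C and DBA/2 families added, 11 with the penalty doubled, 10 at a threshold of 0.2, 21 at 0.5 and 2 with the other families held under 0.15. The segments found at 0.2 covered at least 50% of 8 of the 18, and those at 0.5 of 5; leaving out 1 array or family gave 15 to 24. The bins of that kind were 61 with the added families, 424 in the first scan batch, where 1 B16 array and 2 families enter, 22 with 5 Mb bins, 26 with the other families under 0.15, and 101 to 142 with 1 array or family left out. Averaging Hepa1-6 and PAN02 gave 18 segments. No segment level and no bin or chromosome difference changed sign. Of single segment levels, 207 alternatives stayed within 1 SD and 24 did not; of the differences of the 20 named bins and chromosome 19, 441 kept their side of the threshold and 41 passed it with the block or with arrays entered singly, while chromosome 6 lost its call with normexp and in the first scan batch. The bins with no probe minimum and the scan batch as a term in the fit of the 4 arrays (823 bins) were alternatives chosen after seeing the data. The same fit with B16 entered once per batch, as planned, was not run, since 2 values and a batch term leave no residual degrees of freedom. No paired analysis was possible because the replicate numbers come from accession order and no array is paired with another. One array a line and the probe spacing limit the precision, and segments of under 5 probes could not be found.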
